A study of Homo sapiens with 9 samples.

Results

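The 10 heat shock genes HSPA1A, HSPA1B, HSPA8, HSPH1, HSP90AA1, DNAJB1, BAG3, HSPB1, HSPD1 and HSPE1 were followed across RNA-seq of TCam-2, a human seminoma cell line. The genes were taken from a fixed list by symbol, using the row on a primary chromosome, and make up 10 of the 63856 genes in the count table. That list was chosen with earlier results of these data known. All 10 passed the filter on low counts and were among the 18452 genes tested.

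The series holds 9 samples in 3 groups of 3. The wild type (WT) was unmodified TCam-2. The negative control (NC) carried a guide vector with GFP and nonspecific gRNAs for the human genome. The third group (ESX1) carried the same kind of vector with gRNAs against the promoter of ESX1, a homeobox gene of the germ line, together with a vector for dCas9-VPR, a Cas9 that does not cut and is fused to transcriptional activators (CRISPRa). According to the methods, transfected cells went through lipofection, puromycin and doxycycline before collection, while WT is not described as treated with any of these. NC and WT therefore differ in all of these steps together, and which of them goes with a difference cannot be told apart. The methods list the dCas9-VPR vector for the ESX1 cells and do not say separately whether NC also received it. If NC lacked it, ESX1 and NC would differ in this vector as well as in the guides. Which of these goes with a difference could then not be told apart. The transfected cells were a selected pool in which only some cells carried GFP, not a clone.

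Heat shock proteins are chaperones that keep other proteins folded and unaggregated. HSP70 proteins bind exposed stretches of a client together with a J-domain partner, exchange factors such as HSP110 and BAG proteins release the client, HSP90 matures kinases and receptors, small heat shock proteins hold unfolded clients, and the chaperonin in mitochondria folds imported proteins inside a closed chamber. Many of these genes are induced by the transcription factor HSF1, which binds heat shock elements, arrays of the short unit GAA in alternating orientation, and others are expressed at all times.

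The RefSeq promoters of the 10 genes were read for such elements. Since many heat shock genes are known for them, a share above that of all promoters was likely beforehand. The shares below are therefore a description only. In the 250 bases before each start site, a pair of adjoining units was searched as GAANNTTC or TTCNNGAA, which read the same on both strands. An array of 3 units was searched as such a pair followed by NN and a further unit in the alternate orientation, so every array of 3 also contains pairs. The table listed 14 promoters for the 10 genes. A pair was present in 7 of the 14 promoters, covering 7 of the 10 genes, against 11.6% of all 35116 promoters. An array of 3 units was present in 3 of the 14 promoters (21.4%), against 0.441% of all promoters. These covered 3 of the 10 genes, HSP90AA1, HSPA8 and HSPD1. The letters of a pair were not in these windows for BAG3, HSPH1 and HSPE1. HSPE1 starts at 197500379 on the plus strand of chromosome 2. The array of HSPD1, in the window 197500062 to 197500090, thus also lies upstream of HSPE1, but beyond the 250 bases searched. The windows below are shown because they hold the matches, with the matched letters in capitals, 5′ to 3′ in the direction of the gene (RefSeq, GRCh38.p14).
HSPA1A, chr6:31815422-31815459, plus strand: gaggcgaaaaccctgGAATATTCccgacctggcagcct
HSPA1B, chr6:31827618-31827655, plus strand: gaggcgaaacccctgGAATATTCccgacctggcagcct
HSPA8, chr11:123062171-123062199, minus strand: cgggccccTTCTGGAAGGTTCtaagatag
HSP90AA1, chr14:102087104-102087133, minus strand: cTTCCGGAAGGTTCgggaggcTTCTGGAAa
DNAJB1, chr19:14518422-14518489, minus strand: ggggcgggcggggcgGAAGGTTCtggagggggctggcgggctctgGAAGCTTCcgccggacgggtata
HSPB1, chr7:76302476-76302513, plus strand: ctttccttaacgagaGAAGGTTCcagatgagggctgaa
HSPD1, chr2:197500062-197500090, minus strand: gcattTTCTGGAAAGTTCTGGAAccgagc

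The windows of HSPA1A and HSPA1B carried the same pair at nearly the same distance from the start site, and their whole upstream stretches were identical at 93.6% of 251 aligned columns. For HSPA8, a second array lies farther upstream. The windows of HSPA8, HSP90AA1 and HSPD1 lie within exons of other transcripts in the authors' annotation, while those of HSPA1A, HSPA1B, DNAJB1 and HSPB1 lie outside all listed exons. A match is a string of letters, and no binding was measured in these samples.

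**Figure D1:**
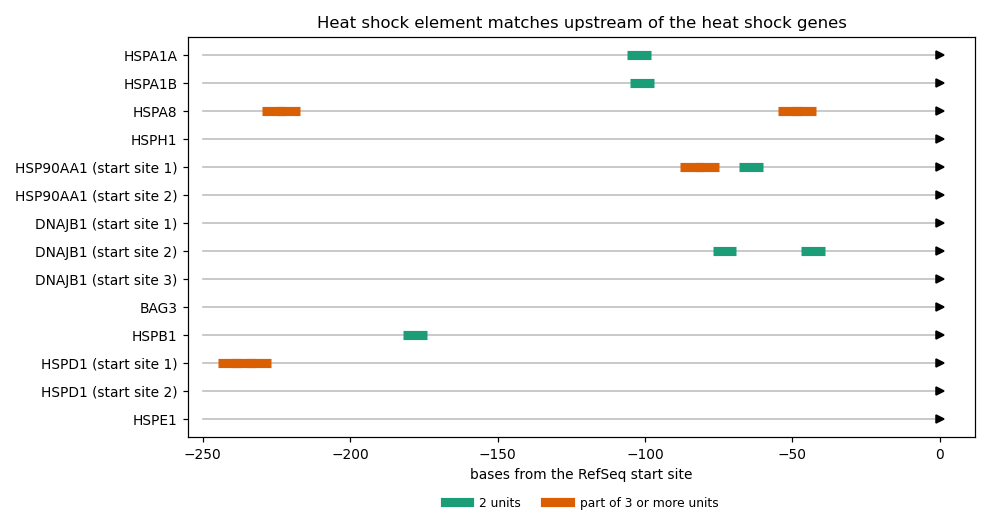
Position of heat shock element matches (bars) in the 250 bases before each of the 14 RefSeq start sites of the 10 genes (arrowheads at 0; x axis in bases). Green bars are pairs of units and orange bars are pairs that form part of an array of 3 or more units; 7 promoters hold a bar and 7 hold none.

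Total counts ranged from 7494442 to 10644408 in WT, from 8821806 to 9220653 in NC and from 5212804 to 9990966 in ESX1, with ESX1 replicate 3 the shallowest. The activated gene itself had counts of 33, 28 and 30 in WT, of 35, 27 and 34 in NC and of 562, 554 and 170 in ESX1. Every ESX1 library thus stood apart from the others (log2 fold change 3.85, SE 0.243, adjusted p = 4.48e-08 against NC). This gene does not tell NC from WT (log2 -0.10, adjusted p = 0.837), so it is no check of those labels. The summed level of 10 seminoma markers ranged from 3708 to 4602 normalized CPM (counts scaled to a library of 1000000) in WT, from 2944 to 3166 in NC and from 1706 to 2052 in ESX1, carried mainly by POU5F1, TFAP2C and NANOG. The markers were present in each sample, and not all of them followed the sum: SOX17 had 232.6, 256.5 and 193.2 CPM in WT and 294.4, 196.5 and 245.1 in ESX1. Embryonal carcinoma markers, chosen as low or absent in seminoma, were present too. They summed to between 117 and 137.8 in WT, between 81.89 and 95.18 in NC and between 66.5 and 84.5 in ESX1, with DNMT3B the largest. Fibroblast markers, mainly COL1A2, summed to between 190.5 and 337.6 in WT, between 133.2 and 169.3 in NC and between 108.6 and 228.1 in ESX1. Sertoli markers summed to at most 40.8, erythroid markers to at most 1.85 with HBB at 0, and immune markers to at most 0.627 with CD3E and LYZ at 0. Mitochondrially encoded genes took between 14.5% and 15.2% of counts in NC, against between 17.02% and 18.3% in WT and between 19.2% and 19.9% in ESX1. The part of these differences in the results below was not tested.

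The heat shock genes together took a larger share of the counts in every transfected sample than in any WT sample. They took between 0.44% and 0.50% of all counts in WT, between 0.649% and 0.655% in NC and between 0.634% and 0.783% in ESX1. HSP90AA1, HSPA8 and HSPD1 made up most of this, between 85.0% and 88.4% of the summed CPM in every sample. In bulk RNA, a change in the number of cells of a kind and a change in RNA per cell cannot be told apart.

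Per length, the genes spanned more than 3 orders of size in WT, with the lower end set by HSPA1A alone at counts of 7, 4 and 5. Reads that fit HSPA1A and HSPA1B alike were not counted, so the places of both in the orders below are uncertain. The length used is that of all listed exon bases of a gene, which can exceed that of the transcript made. HSPE1 shares 23.9% of these bases with other genes. The other places are therefore approximate too. HSPA8 led at 431 ± 4.37 CPM per kb of exon (SD, n = 3, as for all values per kb here), followed by HSP90AA1 at 260 ± 43.1 and HSPD1 at 237 ± 8.12. DNAJB1 at 41.4 ± 4.65, HSPH1 at 37.6 ± 3.95 and HSPE1 at 33.5 ± 3.72 formed a middle group. HSPB1 at 11.1 ± 3.46, BAG3 at 8.34 ± 0.357 and HSPA1B at 7.06 ± 0.541 were low, and HSPA1A was lowest at 0.251 ± 0.0507. In this order, the ranges of mean ± SD overlapped for HSP90AA1 and HSPD1, for the neighbours within the middle group, and for HSPB1 and BAG3. In NC, HSP90AA1 came first at 457 ± 6.78, ahead of HSPA8 at 411 ± 3.07. HSPA1B stood at 32.3 ± 1.11, directly below DNAJB1 at 48.1 ± 2.47 and HSPH1 at 47.9 ± 1.19, which did not differ from each other beyond their spread, and neither did BAG3 at 16.2 ± 2.21, HSPE1 at 14.5 ± 1.32 and HSPB1 at 13.8 ± 1.34. In ESX1, HSPA8 at 523 ± 47.2 and HSP90AA1 at 503 ± 93.2 overlapped, as did DNAJB1 at 69.3 ± 20.0, HSPH1 at 58.2 ± 5.58 and HSPA1B at 57.5 ± 18.7.

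**Figure D2:**
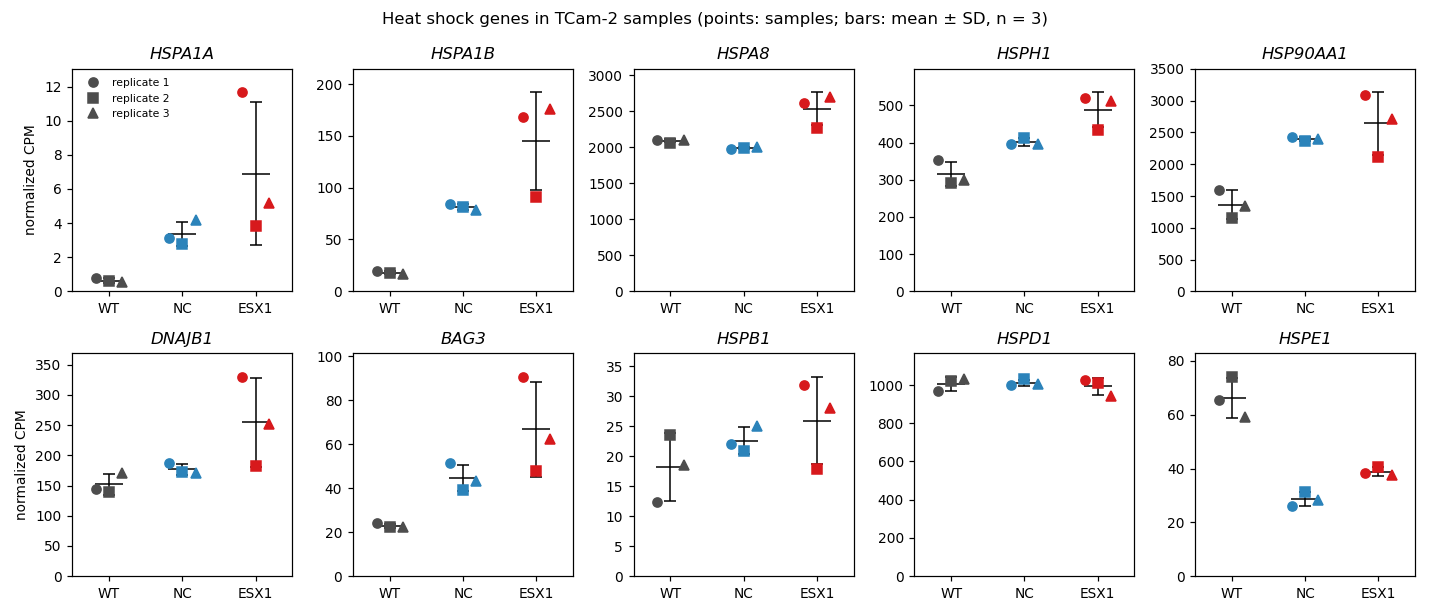
Normalized CPM of each heat shock gene (y axis, own scale from 0 in each panel) in WT (grey), NC (blue) and ESX1 (red); circles, squares and triangles are replicates 1, 2 and 3, and bars are the mean ± SD of 3 samples. HSPA1A and HSPA1B are lowest in all WT samples, HSPE1 is highest in all WT samples, and within ESX1 replicate 2 is the lowest for 8 of the 10 genes.

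Against WT, the cells of NC had higher levels of 5 of the 10 genes and a lower level of 1. HSPA1A, HSPA1B, BAG3, HSP90AA1 and HSPH1 rose and HSPE1 fell at an adjusted p below 0.05, and the changes of HSPA1A, HSPA1B and HSPE1 were at least 2-fold. Among all 18452 tested genes, 17.1% passed the same threshold in NC against WT, 6.82% higher and 10.3% lower, and 5.27% passed with a 2-fold change. The median log2 fold change was 0.34 over the 10 genes and 0.01 over all tested genes.

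Against WT, the ESX1 cells had higher levels of 7 of the 10 genes, with DNAJB1 and HSPA8 added to those above, and a lower level of HSPE1. In that comparison 28.8% of all tested genes passed, 12.9% higher and 15.8% lower, and the median log2 fold change was 0.69 over the 10 genes against 0.01 over all. The changes of HSPA1A, HSPA1B and BAG3 were at least 2-fold, as were those of 11.5% of all tested genes. HSPB1 and HSPD1 did not pass.

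Against NC, the ESX1 cells had higher levels of HSPA1B and HSPA8, 2 of the 10 genes, where 4.25% of all tested genes passed, 1.88% higher and 2.37% lower, and 1.78% with a 2-fold change. The median log2 fold change was 0.39 over the 10 genes. With edgeR's quasi-likelihood test, 0 of the 10 passed with a 2-fold change as well; at an unadjusted p below 0.05, 7 of the 10 passed (16% of all tested genes), 1 of them 2-fold, and DESeq2 called 5 of the 10 (5.32% of all) with 0 at 2-fold. The number of calls moved with the library left out. Without ESX1 replicate 2 the test called 5 members and 4.74% of all genes. Without NC replicate 1 or ESX1 replicate 1 it called 1 member, and 2.2% and 3.48% of all genes. Without NC replicate 2, NC replicate 3 or ESX1 replicate 3 edgeR called 0 members, and 2.02%, 1.79% and 2.31% of all genes, while 7, 6 and 7 members had an unadjusted p below 0.05. The comparisons of each group with NC and WT share samples, so their values are given side by side and not as separate evidence.

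**Figure D3:**
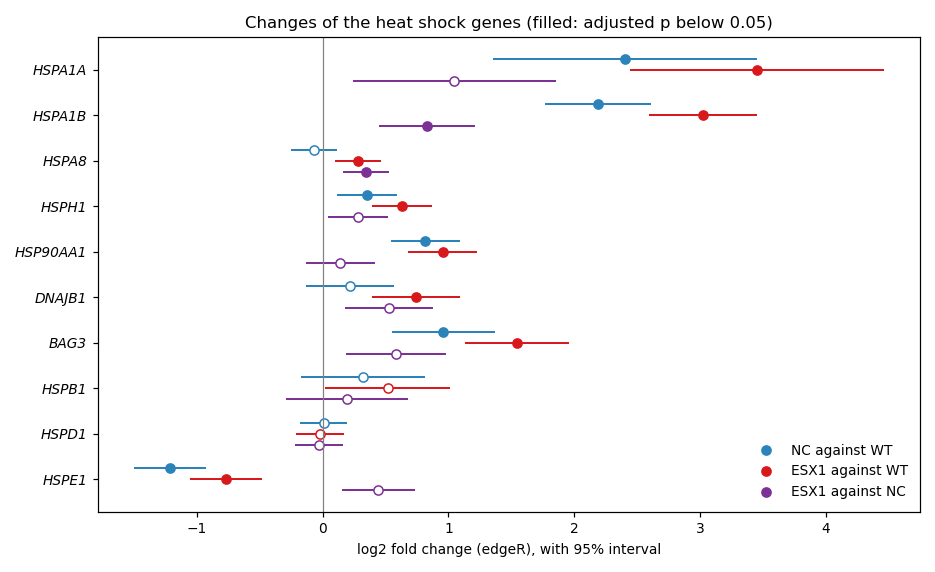
Log2 fold change of each heat shock gene (x axis, edgeR) in NC against WT (blue), ESX1 against WT (red) and ESX1 against NC (purple), with 95% intervals of 3 against 3 samples; filled points have an adjusted p below 0.05. HSPA1A and HSPA1B lie farthest right in both comparisons with WT, HSPE1 lies left of 0 in both, and HSPA1B and HSPA8 are the filled purple points.

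HSPA1A and HSPA1B encode the same stress-inducible HSP70 and lie side by side on chromosome 6 (plus strand, 31815464 to 31817946 and 31827735 to 31830255, GRCh38). HSPA1B had 19.3, 17.4 and 16.7 CPM in WT, 84.2, 81.3 and 78.6 in NC and 168, 90.8 and 176 in ESX1. The 3 groups did not overlap, and ESX1 replicate 2 stood close above NC, well below the other two ESX1 samples. HSPA1B rose 4.57-fold in NC over WT (log2 2.19, SE 0.196, adjusted p = 3.59e-06) and 8.12-fold in ESX1 over WT (log2 3.02, SE 0.199, adjusted p = 1.93e-08). The further rise in ESX1 over NC was 1.78-fold (log2 0.83, SE 0.178, adjusted p = 0.0110). That last call was lost without NC replicate 2 (log2 0.83, adjusted p = 0.0549), NC replicate 3 (0.82, 0.0632) or ESX1 replicate 3 (0.69, 0.0764).

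HSPA1A was close to the detection limit in WT, with counts of 7, 4 and 5, and had counts of 30, 26 and 41 in NC and of 115, 38 and 28 in ESX1. In CPM this was 0.764, 0.583 and 0.522 in WT, 3.11, 2.79 and 4.17 in NC and 11.7, 3.82 and 5.17 in ESX1. Every NC and ESX1 sample was above every WT sample, while NC and ESX1 overlapped and ESX1 replicate 1 stood apart at the top. HSPA1A rose 5.28-fold in NC over WT (log2 2.40, SE 0.494, adjusted p = 0.00299) and 10.9-fold in ESX1 over WT (log2 3.45, SE 0.475, adjusted p = 4.30e-05), with a log2 change of 2.80 without ESX1 replicate 1. On the authors' log2 values these changes were 0.96 and 1.52. Between ESX1 and NC the log2 difference of 1.05 (SE 0.377, 95% interval 0.25 to 1.84) did not pass (adjusted p = 0.147). It was 0.40 without ESX1 replicate 1, and 1.35 with an adjusted p of 0.0413 without ESX1 replicate 2.

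The HSPA1A and HSPA1B transcripts were 91.2% identical over 2525 aligned columns, and 65.3% of the stretches of 150 bases in HSPA1A and 70.1% in HSPA1B also occurred in another gene, mostly the other of the pair, or in a further annotated copy. The authors' counting left out reads with several alignments, so reads that fit both genes alike were not counted and the levels of both are uncertain. HSPA1A made up between 2.86% and 6.48% of the counts of the pair in the 9 samples. With the counts of the pair added together, the log2 fold change was 2.20 in NC against WT, 3.04 in ESX1 against WT and 0.84 in ESX1 against NC (adjusted p = 0.0105).

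HSPA8, the HSP70 that cells make at all times (chromosome 11, minus strand, 123057489 to 123063230), varied little. Its level was 2102, 2064 and 2100 CPM in WT, 1984, 1986 and 2011 in NC and 2622, 2275 and 2707 in ESX1. All ESX1 samples were above all others, and all NC samples were just below WT. The log2 fold change was -0.07 in NC against WT (95% interval -0.24 to 0.11, adjusted p = 0.620), 0.28 in ESX1 against WT (SE 0.0824, adjusted p = 0.0172) and 0.35 in ESX1 against NC (SE 0.0825, adjusted p = 0.0219). The rise over WT was lost without WT replicate 2 (0.26, adjusted p = 0.0699) or ESX1 replicate 1 (0.25, 0.0535). The rise over NC was lost without any 1 of the NC samples (0.34, 0.34 and 0.36, adjusted p = 0.0887, 0.117 and 0.103 without replicates 1, 2 and 3) or without ESX1 replicate 1 (0.32, 0.0624) or 3 (0.31, 0.0659). HSPA1B amounted to between 0.796% and 0.919% of the counts of HSPA8 in WT, to between 3.91% and 4.24% in NC and to 6.42%, 3.99% and 6.50% in ESX1. By these counts HSPA1B stayed below HSPA8 throughout. The percentages are not corrected for length and leave out HSPA1A and the reads that fit both genes of that pair, so they understate the inducible form.

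HSPH1, an HSP110 that acts as exchange factor for HSP70 and dissolves aggregates with it (chromosome 13, minus strand, 31134974 to 31162388), was lowest in WT and highest in ESX1. Its level was 353, 292 and 300 CPM in WT, 396, 413 and 396 in NC and 519, 434 and 511 in ESX1, and the 3 groups did not overlap. HSPH1 was 1.27-fold higher in NC than in WT (log2 0.35, SE 0.109, adjusted p = 0.0352) and 1.55-fold higher in ESX1 than in WT (log2 0.63, SE 0.109, adjusted p = 0.000378). Between ESX1 and NC the log2 difference of 0.28 (95% interval 0.05 to 0.51) did not pass (adjusted p = 0.192). The call in NC against WT was lost without WT replicate 2 (0.29, adjusted p = 0.154), WT replicate 3 (0.31, 0.118) or any of NC replicates 1, 2 and 3 (0.38, 0.35 and 0.37, adjusted p = 0.0738, 0.105 and 0.0894).

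HSP90AA1, the inducible form of cytosolic HSP90 (chromosome 14, minus strand, 102080738 to 102139699), had 1599, 1149 and 1338 CPM in WT, 2434, 2363 and 2392 in NC and 3093, 2122 and 2710 in ESX1. All transfected samples were above all WT samples, while ESX1 spread to both sides of NC. HSP90AA1 rose 1.76-fold in NC over WT (log2 0.81, SE 0.126, adjusted p = 0.000344) and 1.94-fold in ESX1 over WT (log2 0.96, SE 0.126, adjusted p = 2.89e-05). The difference between ESX1 and NC was 0.14 (95% interval -0.12 to 0.40, adjusted p = 0.656). HSP90AB1, the form of cytosolic HSP90 that is made at all times, had a mean of 1642 ± 213 CPM in WT, 1348 ± 16.5 in NC and 1271 ± 119 in ESX1 (SD, n = 3). HSP90AB1 fell in ESX1 against WT (log2 -0.37, SE 0.103, adjusted p = 0.0124) and did not pass in NC against WT (-0.28, adjusted p = 0.0665). The ratio of HSP90AA1 to HSP90AB1 counts was 1.14, 0.641 and 0.771 in WT, 1.79, 1.78 and 1.77 in NC and 2.32, 1.58 and 2.39 in ESX1.

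**Figure D4:**
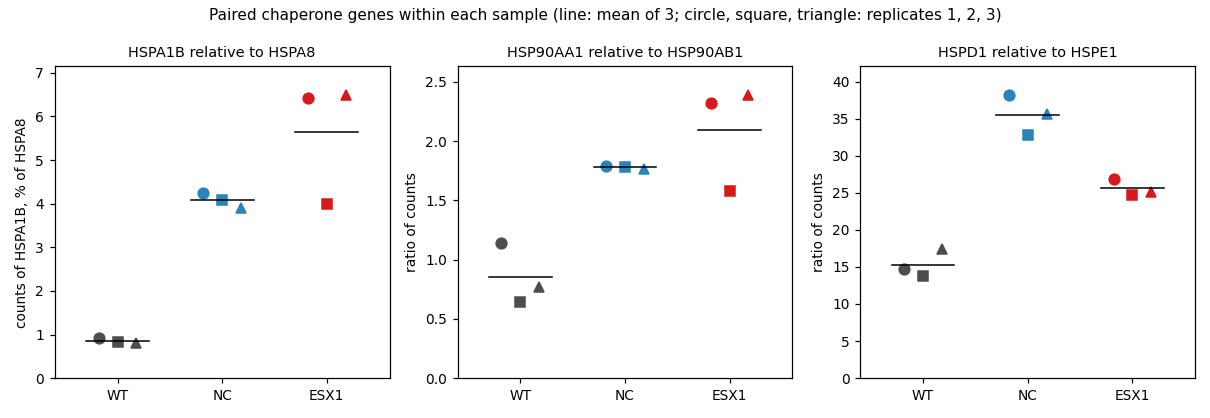
Ratios of counts within each sample for HSPA1B relative to HSPA8 (percent), HSP90AA1 relative to HSP90AB1 and HSPD1 relative to HSPE1 (y axes from 0); points are replicates 1 (circle), 2 (square) and 3 (triangle) and lines are means of 3. In all 3 panels every WT sample lies below every NC and ESX1 sample, and NC is the highest group for HSPD1 relative to HSPE1.

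DNAJB1, the J-domain protein that hands clients to inducible HSP70 (chromosome 19, minus strand, 14514770 to 14529770), had 145, 140 and 171 CPM in WT, 187, 173 and 170 in NC and 329, 182 and 252 in ESX1. WT and NC overlapped, and ESX1 replicate 2 fell between the NC samples. DNAJB1 rose 1.67-fold in ESX1 over WT (log2 0.74, SE 0.162, adjusted p = 0.00241). In NC against WT the difference was 0.22 (95% interval -0.13 to 0.56, adjusted p = 0.389). In ESX1 against NC it was 0.53 (95% interval 0.19 to 0.87, adjusted p = 0.0792), with 0.72 and an adjusted p of 0.00378 without ESX1 replicate 2 and 0.29 without ESX1 replicate 1.

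BAG3, a partner of HSP70 that releases clients and directs them to autophagy (chromosome 10, plus strand, 119651370 to 119677819), had 24.02, 22.2 and 22.6 CPM in WT, 51.2, 39.2 and 43.4 in NC and 90.3, 47.7 and 62.3 in ESX1. WT lay below all other samples, and ESX1 replicate 2 lay among the NC samples. BAG3 rose 1.95-fold in NC over WT (log2 0.96, SE 0.191, adjusted p = 0.00240) and 2.91-fold in ESX1 over WT (log2 1.54, SE 0.191, adjusted p = 1.49e-05). Between ESX1 and NC the difference was 0.58 (95% interval 0.20 to 0.97, adjusted p = 0.0884). It was 0.78 with an adjusted p of 0.00904 without ESX1 replicate 2, and 0.29 without ESX1 replicate 1.

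HSPB1, a small heat shock protein that holds unfolded clients and binds actin (chromosome 7, plus strand, 76302544 to 76304295), had 12.3, 23.6 and 18.6 CPM in WT, 22.0, 20.8 and 25.04 in NC and 31.8, 17.9 and 28.1 in ESX1. The groups overlapped in all comparisons at counts of 113 to 314 per sample. The log2 fold change was 0.32 in NC against WT (95% interval -0.16 to 0.81, adjusted p = 0.361), 0.52 in ESX1 against WT (SE 0.231, adjusted p = 0.105) and 0.19 in ESX1 against NC (-0.28 to 0.67, adjusted p = 0.754). In NC against WT it was 0.10 without WT replicate 1 and 0.54 without WT replicate 2. In ESX1 against WT it was 0.29 without WT replicate 1 and 0.32 without ESX1 replicate 1, 0.73 without WT replicate 2 (adjusted p = 0.0466) and 0.73 without ESX1 replicate 2 (adjusted p = 0.0189). Against NC it was close to 0 without ESX1 replicate 1 and 0.41 without ESX1 replicate 2.

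HSPD1 and HSPE1 encode the barrel (HSP60) and the lid (HSP10) of the mitochondrial chaperonin and lie head to head on chromosome 2 (197486581 to 197516737 on the minus strand and 197499994 to 197503457 on the plus strand). HSPD1 was level, with 967, 1019 and 1031 CPM in WT, 1002, 1030 and 1003 in NC and 1028, 1009 and 942 in ESX1. Its log2 fold changes were 0.01 (95% interval -0.17 to 0.19) in NC against WT, -0.02 (-0.20 to 0.16) in ESX1 against WT and -0.03 (-0.21 to 0.15) in ESX1 against NC, and none passed (adjusted p = 0.958, 0.898 and 0.928). HSPE1 had 65.6, 73.9 and 59.2 CPM in WT, 26.2, 31.4 and 28.2 in NC and 38.2, 40.7 and 37.5 in ESX1, in 3 groups that did not overlap. HSPE1 was 2.31-fold lower in NC than in WT (log2 -1.21, SE 0.132, adjusted p = 1.93e-05) and 1.70-fold lower in ESX1 than in WT (log2 -0.77, SE 0.130, adjusted p = 0.000314). Between ESX1 and NC the log2 difference of 0.44 (95% interval 0.16 to 0.72) did not pass (adjusted p = 0.0739).

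The ratio of HSPD1 to HSPE1 counts was 14.7, 13.8 and 17.4 in WT, 38.2, 32.8 and 35.6 in NC and 26.9, 24.8 and 25.1 in ESX1. Every transfected sample had a higher ratio than every WT sample, with NC highest. The counts of HSPE1 are uncertain as well: 23.9% of its exon bases lie in exons of HSPD1 or HSPE1-MOB4, the counting did not use the strand, and 26 listed HSPE1 pseudogenes together held counts equal to 19.0% of those of HSPE1. Of the other 8 genes, HSPA8, HSP90AA1 and DNAJB1 shared 3.61%, 3.75% and 6.21% of their exon bases with other genes, and HSPA1A, HSPA1B, HSPH1, BAG3 and HSPB1 shared 0%.

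Groups that do not overlap were frequent across the whole table. Samples were fully apart for 7 of the 10 heat shock genes in NC against WT (5 higher, 2 lower) against 37.6% of all tested genes (17.6% higher, 20% lower), for 8 of 10 in ESX1 against WT (7 higher, 1 lower) against 40.3% (18.9% higher, 21.3% lower), and for 4 of 10 in ESX1 against NC (all higher: HSPA1B, HSPA8, HSPH1 and HSPE1) against 22.6% (10.7% higher, 11.8% lower).

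The wider chaperone network was described from 11 lists with 133 genes, 120 of them tested. In NC against WT, 13 of these 120 rose and 13 fell (21.7% called, against 17.1% of all genes). In ESX1 against WT, 28 rose and 17 fell (37.5%, against 28.8%), and in ESX1 against NC, 12 rose and 1 fell (10.8%, against 4.25%). The last count was 8, 6 and 5 genes in all without NC replicates 1, 2 and 3 and 7 without ESX1 replicate 1. For each list below, calls are to be read against the same 17.1%, 28.8% and 4.25% of all tested genes. The lists were chosen with earlier results of these data known, so their shares are a description only.

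HSF1 and HSF2, the transcription factors of the heat shock response, did not pass in any comparison: HSF1 had a mean of 64.1 ± 4.48 CPM in WT, 70.3 ± 4.24 in NC and 62.2 ± 15.9 in ESX1, and HSF2 had 22.4 ± 3.19, 20.1 ± 1.47 and 22.1 ± 3.20 (SD, n = 3). Of 5 tested genes in their list, HSBP1, a small protein that binds HSF1, fell in NC against WT (log2 -0.84, adjusted p = 0.000295) and in ESX1 against WT (-0.57, adjusted p = 0.00274). HSF4 rose in ESX1 against WT (1.95, adjusted p = 0.0242) at 3 to 18 counts per sample. With edgeR 0 of the 5 passed in ESX1 against NC, while 2 had an unadjusted p below 0.05 and DESeq2 and limma called 0.

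Among 12 other HSP70 and HSP110 genes, 2 rose and 1 fell in NC against WT, 5 rose and 1 fell in ESX1 against WT, and 3 rose in ESX1 against NC. These shares were 25%, 50% and 25%, against 17.1%, 28.8% and 4.25% of all tested genes. HSPA6, a strictly inducible HSP70, had counts of 5, 0 and 0 in WT, 34, 26 and 15 in NC and 209, 81 and 29 in ESX1. It rose in NC over WT (log2 3.65, SE 0.833, adjusted p = 0.00605), in ESX1 over WT (5.82, SE 0.731, adjusted p = 1.68e-05) and in ESX1 over NC (2.17, SE 0.493, adjusted p = 0.0159), with sizes in the comparisons with WT that rest on 5 counts. HSPA2, an HSP70 of the germ line, rose 1.64-fold in ESX1 over NC (log2 0.71, adjusted p = 0.00279), and HSPA4L, an HSP110 of the testis, rose 1.51-fold (0.59, adjusted p = 0.0167). HSPA5, the HSP70 of the endoplasmic reticulum, rose 1.67-fold in NC over WT (0.74, adjusted p = 0.00369), and HSPA14, an HSP70 at the ribosome, fell by 0.65 on the log2 scale (adjusted p = 0.00640).

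Among 37 tested J-domain genes, 5 rose and 1 fell in NC against WT, 11 rose and 1 fell in ESX1 against WT, and 2 rose in ESX1 against NC. These shares of 16.2%, 32.4% and 5.41% were near the 17.1%, 28.8% and 4.25% of all tested genes. The 2 genes higher in ESX1 than in NC were DNAJC15, of the mitochondrial inner membrane (log2 1.14, adjusted p = 0.00219), and DNAJB9, of the endoplasmic reticulum (0.72, adjusted p = 0.0441). DNAJB2 rose 1.98-fold in NC over WT (0.99, adjusted p = 0.000236) and 2.21-fold in ESX1 over WT (1.14, adjusted p = 1.94e-05), DNAJC6, a partner of HSP70 in clathrin uncoating, rose 2.36-fold (1.24, adjusted p = 0.00594) and 4.43-fold (2.15, adjusted p = 2.30e-05) in the same comparisons, and DNAJC30 rose 2.97-fold in NC over WT (1.57, adjusted p = 0.0212) at 6 to 45 counts per sample. Of 2 tested small heat shock genes besides HSPB1, HSPB8, which works with BAG3, rose in all 3 comparisons: log2 2.21 in NC over WT (adjusted p = 0.00216), 3.99 in ESX1 over WT (adjusted p = 2.04e-06) and 1.78 in ESX1 over NC (adjusted p = 0.00419). Its counts were low in WT, at 15, 11 and 4, against 56, 58 and 45 in NC and 291, 138 and 71 in ESX1. In ESX1 replicate 1 stood above the others, at 29.5 CPM against 13.9 and 13.1.

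Of 10 other genes known to be induced by heat or proteotoxic stress, which include the collagen chaperone SERPINH1, 4 rose and 1 fell in NC against WT, 6 rose and 1 fell in ESX1 against WT, and 6 rose in ESX1 against NC. These shares were 50%, 70% and 60%, against 17.1%, 28.8% and 4.25% of all tested genes. They are a description only, since the list was chosen with earlier results known. SQSTM1 in it was also selected by the authors from these same samples as upregulated in ESX1 cells. HMOX1, which degrades haem and responds mainly to oxidative stress, had 2.62, 1.31 and 0.940 CPM in WT, 24.4, 23.2 and 21.0 in NC and 141, 47.4 and 77.8 in ESX1. SQSTM1, the autophagy receptor p62, had a mean of 52.5 ± 2.42, 141 ± 15.8 and 339 ± 122 CPM (SD, n = 3). In ESX1 over NC, HMOX1 rose 3.89-fold (log2 1.96, adjusted p = 0.000592), SQSTM1 2.41-fold (1.27, adjusted p = 0.000508) and DEDD2 1.53-fold (0.62, adjusted p = 0.0367). CLU, a chaperone of the extracellular space, rose 1.75-fold in NC over WT (0.80, adjusted p = 0.000664) and 2.47-fold in ESX1 over WT (adjusted p = 2.35e-06). The gene that fell in NC against WT was IER5 (-0.50, adjusted p = 0.0441). In ESX1 against WT it was SERPINH1 (-0.32, adjusted p = 0.0382). ESX1 replicate 1 was the highest sample for HMOX1, SQSTM1, DEDD2, HSPA6, HSPA2, HSPA4L and HSPB8. The same sample was highest for HSPA1A, HSPH1, HSP90AA1, DNAJB1, BAG3 and HSPB1. ESX1 replicate 3 was highest for CLU, DNAJB9 and DNAJC15, as for HSPA1B and HSPA8. Changes of single network genes without 1 library are not given here.

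The genes of the cytosolic chaperonin CCT, which folds actin and tubulin, were mostly lower in the transfected cells than in WT. Of its 8 subunit genes, 7 fell in NC against WT and 6 in ESX1 against WT, with medians of -0.47 and -0.43 on the log2 scale, and 1, TCP1, fell in ESX1 against NC. TCP1 had a mean of 510 ± 92.0 CPM in WT, 308 ± 7.39 in NC and 225 ± 18.7 in ESX1 (SD, n = 3; log2 -0.73, -1.18 and, for ESX1 against NC, -0.46 with an adjusted p of 0.0488). CCT2 and CCT5 fell by 0.52 and 0.49 on the log2 scale in NC against WT (adjusted p = 0.00522 and 0.00494). Prefoldin, which delivers clients to CCT, had 2 of 6 genes lower in each comparison with WT, VBP1 (log2 -0.80 and -0.62) and PFDN4 (-0.57 and -0.59). That share was 33.3% in each, against 17.1% and 28.8% of all tested genes. With edgeR 0 of the 6 passed in ESX1 against NC, 1 had an unadjusted p below 0.05, and DESeq2 and limma called 0.

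Among 17 tested HSP90 cochaperones, 1 rose and 3 fell in ESX1 against WT, with CHORDC1 higher (log2 0.52, adjusted p = 0.0315) and FKBP8 lower (-0.47, adjusted p = 0.0453). This share of 23.5% was below the 28.8% of all tested genes. With edgeR 0 of the 17 passed in NC against WT or in ESX1 against NC; 1 had an unadjusted p below 0.05 in each (31.1% of all tested genes in NC against WT), and DESeq2, which called 17.9% of all genes there, and limma called 0. Of the 3 other HSP90 genes, HSP90AB1 fell in ESX1 against WT as given above; edgeR called 0 in NC against WT, with 1 at an unadjusted p below 0.05, and 0 in ESX1 against NC, with 0 at an unadjusted p below 0.05, and DESeq2 and limma called 0 in both. Of the 10 other exchange factors and BAG genes, BAG1 rose in ESX1 against WT (0.50, adjusted p = 0.0262), while with edgeR 0 passed in NC against WT, where 3 had an unadjusted p below 0.05, and 0 in ESX1 against NC, where 1 had; DESeq2 and limma called 0 in both. Of 10 genes of mitochondrial proteases and the import motor, LONP1, a protease of the mitochondrial matrix, rose 1.62-fold in NC over WT (0.70, adjusted p = 0.00284) and 1.56-fold in ESX1 over WT (0.64, adjusted p = 0.00259), SPG7 rose (0.39, adjusted p = 0.0324) and CLPP fell (-0.44, adjusted p = 0.0284) in ESX1 against WT, and edgeR called 0 in ESX1 against NC, with 0 at an unadjusted p below 0.05 and 0 by DESeq2 and limma.

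**Figure D5:**
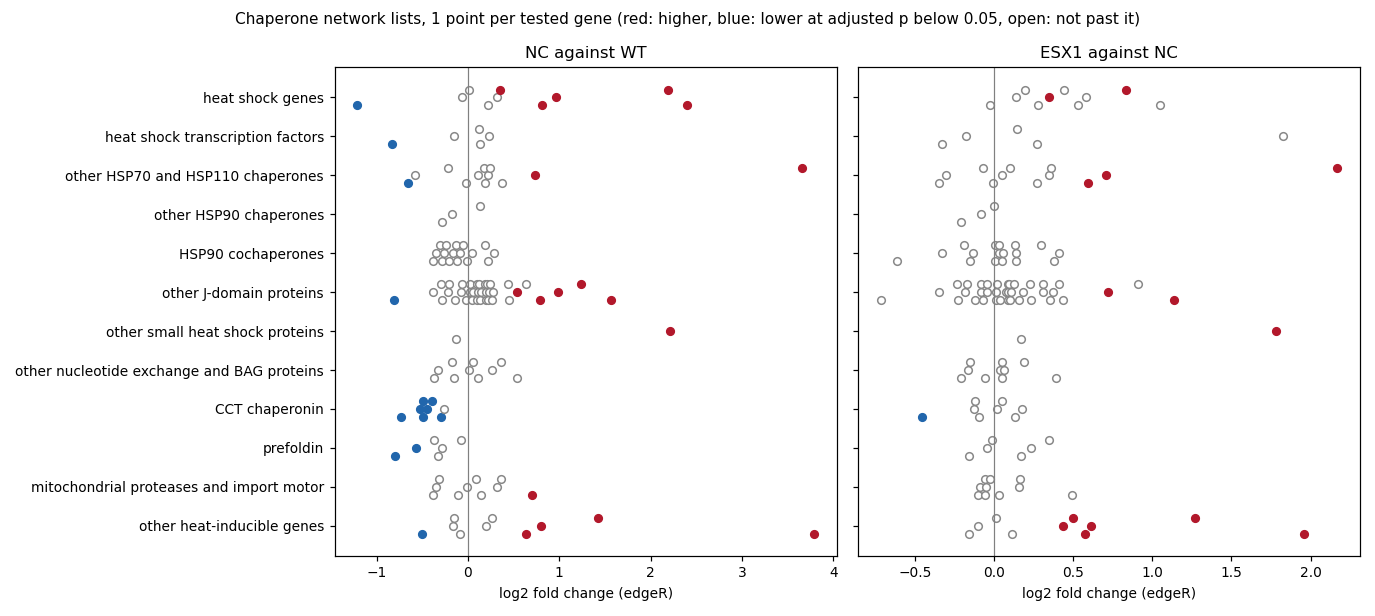
Log2 fold change (x axis, edgeR) of each tested gene of the heat shock set and of 11 other chaperone lists in NC against WT (left) and ESX1 against NC (right); 1 point is 1 gene, filled red or blue for higher or lower at an adjusted p below 0.05 and open otherwise. On the left 7 of the 8 CCT genes are blue, and on the right 6 of the 10 other heat-inducible genes are red.

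For 4 of the heat shock genes, the tested genes with the most similar profile were sought by the root mean square (RMS) difference of centred log2 CPM (prior count 2) over the 9 samples. For HSPA1B, whose profile varied with an SD of 1.28, these were GADD45A (RMS 0.197), FOSL2 (0.266) and NALCN (0.268). The fitted log2 fold changes in NC and in ESX1 against WT were 2.03 and 2.86 for GADD45A and 1.76 and 2.79 for FOSL2, beside 2.19 and 3.02 for HSPA1B. For NALCN they were 6.07 and 6.95, far larger, since the likeness was measured on log2 CPM with a prior count, which damps changes from low levels. For BAG3 (SD 0.658) they were B4GALNT3 (0.145), SLC7A5 (0.150) and INPP5K (0.153), and for HSPH1 (SD 0.276) PRDM4 (0.0655), SYS1 (0.0704) and TAX1BP1 (0.0714). HSPD1 varied so little (SD 0.0422) that its nearest genes, SNAP47 (0.0351), UGGT1 (0.0356) and EIF3A (0.0400), are genes that were also flat.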

How the data were processed

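RNA-seq of 9 TCam-2 samples, labelled as 3 replicates each of WT, NC and ESX1 and described in the methods as biological replicates, was analysed. The authors made the libraries from ribosome-depleted total RNA, aligned read pairs with HISAT2 2.0.5 and deposited unnormalized counts per gene; the file header names featureCounts 1.5.2 and GENCODE 26, without strand, multiple-alignment or overlap options, while the submitters' processing notes name featureCounts 1.6.5. The authors also deposited log2 values normalized with DESeq2, by a transformation that is not named, and these were used only for an alternative with limma.

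Counts were fitted in R 4.3.3 with edgeR 4.0.16 over all 9 samples: filterByExpr, TMM, glmQLFit and glmQLFTest between group means, with p-values adjusted by Benjamini-Hochberg over 18452 genes and a call at an adjusted p below 0.05. CPM are counts scaled to a TMM-normalized library of 1000000, and per kb they are divided by exon length. The SE is the size of the log2 fold change divided by the square root of F. On simulated counts for these 18452 genes, the test recovered 95% of genes changed 4-fold and 68% of those changed 2-fold in ESX1 against NC, with 7 false calls, and 93% and 59% in ESX1 against WT, with 4. The simulation gave every gene the same dispersion of 0.0277 in all groups. In the data the ESX1 samples spread more widely for genes such as HSPA1B, so these rates may not carry over. The alternatives, with DESeq2 1.42.0 and limma 3.58.1 among them, are given at the end. The members and gene lists were chosen with earlier results of these data known. Named in the text were all 10 heat shock genes, HSF1, HSF2, up to 3 genes with the largest change among those called per list and comparison, and the 3 most similar profiles for HSPA1B, HSPH1, HSPD1 and BAG3; HSP90AB1 fell under the rule in ESX1 against WT, and 1 gene that the rule names is not reported here. Besides these, SERPINH1 and IER5 were named as the genes that fell among the other heat-inducible genes. Promoters came from RefSeq on GRCh38.p14 and matched all 10 symbols.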

Additional observations from a re-analysis of the deposited data

How the results depend on the processing

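Depth limited HSPA1A, HSPA6 and HSF4, at a few counts per WT sample, and ESX1 replicate 3 had the lowest total. Upper-quartile factors gave 0.0204 for HSPA8 in NC against WT, 0.0845 for HSPD1 in ESX1 against WT and 0.62 for HSPB1 in ESX1 against WT (adjusted p = 0.0483). They moved HSPA8 by 0.0877 and HSPD1 by 0.103 there, and the median of all genes by 0.0875 and 0.1017. HSPD1 in ESX1 against WT was 0.0286 with at least 10 counts in every sample and 0.0118 with only the 6 samples compared. With no filter, HSPB1 was 0.52 in ESX1 against WT (adjusted p = 0.0405), and in ESX1 against NC DNAJB1 was 0.52 and BAG3 0.58, so 4 members passed. With DESeq2, 5 members passed in ESX1 against NC, DNAJB1 (0.54), BAG3 (0.59) and HSPE1 (0.45) among them. With the pair summed, HSPA1A was 0.84 in ESX1 against NC. With a 2-fold change required as well, 3, 3 and 0 members and 6, 12 and 5 network genes passed in NC against WT, ESX1 against WT and ESX1 against NC. The cause of these shifts was not tested.

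The replicate numbers are those of the sample titles, from which the library names of some ESX1 samples differ, and they did not pair the samples: the deviations of same-numbered samples correlated between -0.03 and 0.193, over 0.1 in 1 of 9 pairs. With the replicate number as a block, 5 members passed in ESX1 against NC, with DNAJB1 at 0.50, BAG3 at 0.55 and HSPE1 at 0.44 past the threshold, and no other call of a member changed.

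Without 1 sample at a time, members called ranged from 5 to 6, from 7 to 9 and from 0 to 5 in the same order of comparisons, and network genes from 21 to 30, from 32 to 43 and from 5 to 14. In NC against WT, HSPH1 ranged from 0.29 to 0.44 and HSPD1 from -0.0241 to 0.031. In ESX1 against WT, HSPA8 ranged from 0.25 to 0.35, HSPB1 from 0.29 to 0.73 and HSPD1 from -0.0545 to 0.0456. In ESX1 against NC, HSPA1A ranged from 0.40 to 1.35, HSPA1B from 0.69 to 1.08, HSPA8 from 0.31 to 0.42, DNAJB1 from 0.29 to 0.72, BAG3 from 0.29 to 0.78 and HSPD1 from -0.0547 to 0.0226. Of 543 recomputed log2 fold changes, 504 kept their direction and side of the threshold, and 95 of 114 recomputed counts stayed within 1.5 times the count first given.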
